A study of Mus musculus with 9 samples.

Results

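Transcription of 10 genes of the epidermal growth factor (EGF) pathway was examined in mouse duodenal organoids, which are cultured mini-guts. They were 6 ligands (Ereg, Areg, Btc, Hbegf, Tgfa and Egf), 3 receptors (Egfr, Erbb2 and Erbb3) and 1 receptor inhibitor (Errfi1), taken by symbol from the 24505 genes of the deposited table. All 10 passed the filter on low values, as did 16563 genes in all. The set was chosen by the GRO-seq values of Ereg, already known to be lower in RANKL than in WENRC, and by pathway membership of the others. The levels of Ereg are therefore described with no test, and every count of called genes covers the 9 others. Regions of the histone mark H3K27me3 that the authors named for a member numbered 7 of 49405.

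The series holds 3 cultures of duodenal epithelium. RANKL cultures are labelled as intestinal M cells, the cells over gut lymphoid follicles that take up particles from the lumen, ENRI cultures as enterocytes and WENRC cultures as stem cells. GRO-seq, which sequences RNA being made by polymerases already engaged on the DNA, covered each of the 3 cultures with 2 libraries, and H3K27me3 ChIP-seq covered RANKL (2 libraries, pooled by the authors) and WENRC (1 library). The ENRI and WENRC GRO-seq libraries came from mouse 1 and mouse 2, while the RANKL libraries carry a replicate number only. Strain, age, time in culture, and whether a medium held EGF are not given in the sources used here, and the culture names are not spelled out there.

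EGF family ligands are made as membrane-anchored precursors that proteases cut free. They bind receptors of the ErbB family: EREG, HBEGF and BTC bind EGFR and ERBB4, while AREG, TGFA and EGF bind EGFR. ERBB2 has no known ligand of its own and ERBB3 has a weak kinase, so both signal mainly as partners in dimers. Downstream, the Ras, MEK and ERK kinases switch on transcription of growth genes and of the pathway's own brakes. In the gut, EGF receptor signalling is known for driving division of crypt stem cells and repair of the epithelium.

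Marker genes followed the labels in part. Of 11 M cell markers, 10 were higher in RANKL than in ENRI and 9 higher than in WENRC (FDR under 0.05), and the level summed over the list was 13.82 to 13.89 in RANKL, 10.84 to 11.76 in ENRI and 11.47 to 11.49 in WENRC on the log2 scale. Of 9 stem cell markers, 8 were higher in WENRC than in ENRI, but the summed level in RANKL (13.62 to 13.71) lay nearer WENRC (13.97 to 14.10) than ENRI (11.41 to 11.77). Single markers varied: RANKL was higher than ENRI for 5 and lower for 1, and higher than WENRC for 1 and lower for 2. Lgr5 in RANKL (mean 8.80) lay near ENRI (8.70) and below WENRC (11.82). Sp5 had its lowest mean in RANKL (5.39, against 7.05 in ENRI and 6.81 in WENRC), while Olfm4, Axin2 and Tnfrsf19 had their highest means there. The 12 enterocyte markers summed to 15.88 to 16.74 in ENRI, 14.93 to 15.07 in RANKL and 12.43 to 13.39 in WENRC. Paneth markers were also highest in RANKL by summed level (11.50 to 11.63, against 9.06 to 10.15 in ENRI and 9.52 to 10 in WENRC). So were tuft markers (9.93 to 10, against 8.75 to 8.92 and 9.06 to 9.30, with Il25 at 0) and enteroendocrine markers (10.47 to 10.91, against 9.16 to 10.01 and 8.92 to 9.71). Called higher in RANKL than in ENRI were 3 of 7 Paneth, 3 of 5 tested tuft and 1 of 7 enteroendocrine markers. Against WENRC they numbered 3, 2 and 1, and 0 were lower in either comparison. Of all tested genes, 10.4% and 8.53% were called higher. The enteroendocrine sum was mostly Chgb (mean 10.39 in RANKL). RANKL means of Cck, Sct and Tac1 lay below those in ENRI, and those of Chga, Chgb, Neurog3 and Neurod1 above. Of 8 mesenchyme markers, 7 stayed under the filter in every library, the exception being Pdgfrb, which was higher in RANKL than in ENRI (1.94, FDR 0.0143) and WENRC (2.45, FDR 0.0102). The part of these lists in the RANKL results was not tested. GRO-seq depth is unknown. Replicates were closest in RANKL, where the SD across genes of their difference was 0.220, against 0.699 in ENRI and 0.421 in WENRC.

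Values are the authors' normalized log2 values for whole genes. They have the shape of a regularized logarithm, which draws genes with few reads together, so a difference understates the change of a weakly transcribed gene. Differences were tested with limma over all tested genes (Benjamini-Hochberg adjusted p, called FDR), and a gene was called at an FDR under 0.05. Groups of 2 libraries did not overlap at all for 64.7% of tested genes in RANKL against ENRI, 68.6% in RANKL against WENRC and 58.5% in WENRC against ENRI, so lack of overlap is common here.

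Promoter sequences from RefSeq (GRCm38.p6, the 250 bases before the start) were matched for 7 of the 10 members. Those of Ereg, Hbegf and Erbb3 were not matched and so were not searched. The 7 were searched on both strands for the CRE (TGACGTCA), AP-1 (TGANTCA) and ETS (CCGGAAGT) motifs. The CArG box and the NF-kB motif were searched as well. Of the 7, only the promoters of Areg and Errfi1 held one of these motifs. Both held a CRE, the binding motif of the CREB and ATF factors, which stands in 1.55% of 32851 RefSeq promoters of the same length. They are shown because these genes were the members most heavily transcribed for their length, with the CRE in capitals. That of Areg (chr5:91139349-91139598, plus strand) has its CRE beginning 61 bases before the start, and that of Errfi1 (chr4:150854820-150855069, plus strand) 51 bases before it. Errfi1 had 2 promoter entries, of which 1 is shown. RefSeq's Errfi1 gene differs in length from the mm9 gene by 30 bases, so its start may not be the one counted by the authors.
Areg: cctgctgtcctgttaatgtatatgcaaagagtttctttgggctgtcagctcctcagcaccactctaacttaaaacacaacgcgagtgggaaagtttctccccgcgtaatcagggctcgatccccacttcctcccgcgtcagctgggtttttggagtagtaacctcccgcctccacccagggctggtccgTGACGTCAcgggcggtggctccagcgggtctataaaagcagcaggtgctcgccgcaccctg
Errfi1: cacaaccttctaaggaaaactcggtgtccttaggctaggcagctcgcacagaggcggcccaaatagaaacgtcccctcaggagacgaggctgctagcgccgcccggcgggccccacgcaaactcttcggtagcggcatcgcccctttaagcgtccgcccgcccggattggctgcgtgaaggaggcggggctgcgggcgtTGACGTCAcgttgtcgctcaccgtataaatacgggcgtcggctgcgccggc

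Per length (log2 value less log2 of gene length in kb, averaged over the 6 libraries), Areg stood at percentile 98.6 of tested genes, Errfi1 at 97.2, Hbegf at 96.4 and Erbb3 at 95.1. Erbb2 followed at 88.3. Egfr (50.9), Tgfa (43.5) and Btc (41.6) were in the middle of the range, and Ereg (31.3) and Egf (13.3) were low. The mean of Ereg is drawn down by RANKL, the value that chose the set: per length it was 0.63 in RANKL, 3.32 in ENRI and 3.57 in WENRC on the log2 scale. In ENRI that lay beside Tgfa (3.26) and Btc (3.20).

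**Figure D1:**
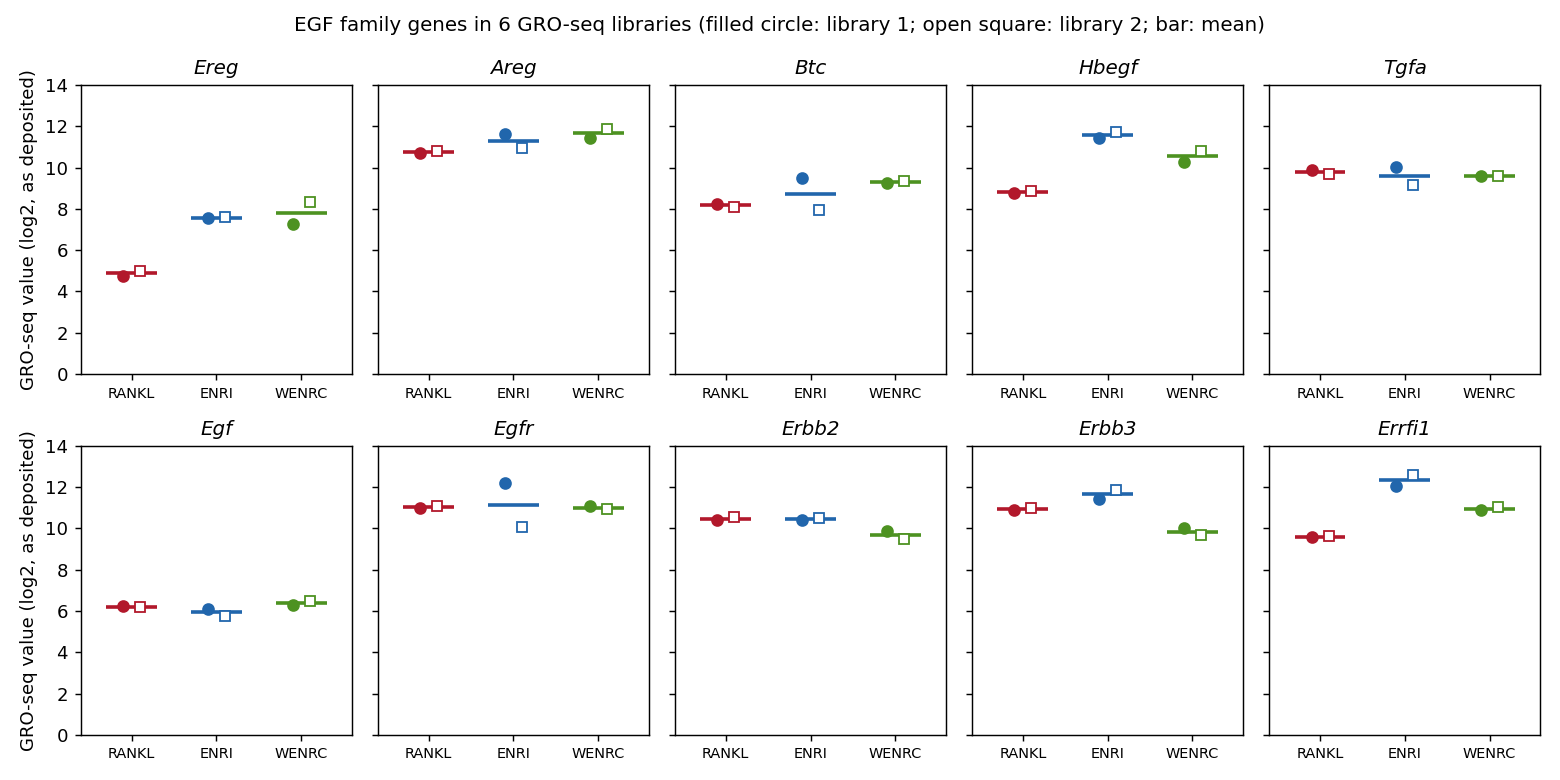
Deposited log2 GRO-seq value (vertical axis) of each of the 10 genes in the RANKL, ENRI and WENRC cultures. Each point is 1 library (filled circle, library 1; open square, library 2) and the bar is the mean of 2 libraries. Ereg, Hbegf and Errfi1 sit lowest in RANKL, Erbb2 and Erbb3 sit lowest in WENRC, and the 2 ENRI libraries stand far apart for Egfr and Btc.

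Ereg encodes epiregulin, a ligand that stimulates growth of epithelia. It lies on the plus strand of mm9 chromosome 5 (NM_007950, 91503643 to 91522675). Its log2 values were 4.77 and 4.99 in RANKL, 7.55 and 7.60 in ENRI, and 7.29 and 8.35 in WENRC. Both RANKL libraries lay below all 4 others, and the ENRI values lay inside the WENRC range, so those cultures could not be ordered. The group means were 4.88 ± 0.15 in RANKL, 7.57 ± 0.03 in ENRI and 7.82 ± 0.75 in WENRC (SD, n = 2 each). The mean in RANKL was lower by a log2 difference of -2.70 against ENRI and -2.94 against WENRC. The authors' deposited table gave larger changes, 23.95-fold lower and 33.04-fold lower (log2 -4.58 and -5.05). Whether those folds were themselves drawn together is not given in the sources used here. Ereg was weakly transcribed in RANKL (0.63 per length on the log2 scale), so the size of these folds is uncertain. In such bulk cultures, fewer cells that transcribe a gene and less transcription per cell cannot be told apart. RANKL libraries are also combined runs of a repeat sequencing, per the file headers, so batch and culture cannot be told apart in any RANKL comparison.

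Ereg shares its chromosomal neighbourhood with 3 more EGF family ligands. In mm9 order, Epgn (epigen) ends 39.4 kb before Ereg, Areg begins 46.0 kb after it, the non-coding gene Gm19619 begins 109.1 kb after Areg, and Btc begins 74.2 kb after Gm19619. Epgn was under the filter, with values from 1.08 to 1.17 in all 6 libraries. Gm19619 read 5.33 and 5.23 in RANKL, 5.42 and 6.35 in ENRI, and 6.18 and 6.39 in WENRC. The low RANKL level of Ereg was thus measured beside a neighbour near the bottom of the scale and another, Areg, near the top for its length.

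Areg encodes amphiregulin, a ligand linked to tissue repair (NM_009704, chromosome 5, 91568625 to 91577458, plus strand). Its values were 10.70 and 10.81 in RANKL, 10.95 and 11.61 in ENRI, and 11.43 and 11.89 in WENRC. RANKL lay below both other cultures, and ENRI and WENRC overlapped. The difference was -0.91 against WENRC (SE 0.27, FDR 0.0819) and -0.53 against ENRI (SE 0.27, FDR 0.209), neither called. Against WENRC it was called in a fit of only these 4 libraries (FDR 0.00555), after quantile normalization (-1.32, FDR 0.0419) and in the authors' deposited table (adjusted p 1.25e-07). Without ENRI 1 or ENRI 2 its FDR was 0.00636 or 0.00587. The other 2 Areg comparisons also moved with the ENRI libraries. RANKL less ENRI was -0.20 without ENRI 1 and -0.86 without ENRI 2, and WENRC less ENRI was 0.71 and 0.05. With 1 ENRI library left, the fit holds no ENRI spread. Such differences against ENRI are therefore given without an FDR, here and for the other members.

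Btc encodes betacellulin (NM_007568, chromosome 5, 91786287 to 91832020, minus strand). Its values were 8.25 and 8.08 in RANKL, 9.49 and 7.93 in ENRI, and 9.27 and 9.37 in WENRC. RANKL lay below both WENRC libraries but between the 2 ENRI libraries. The difference against WENRC was -1.15 (SE 0.47, FDR 0.169). It was called in the fit of those 4 libraries alone (FDR 0.000645) and in the authors' deposited table (adjusted p 1.3e-08). Against ENRI it was -0.55 (SE 0.47, FDR 0.452), and ENRI decided that value: it was 0.23 without ENRI 1 and -1.33 without ENRI 2. WENRC less ENRI was 0.61 for Btc (FDR 0.43), 1.39 without ENRI 1 and -0.17 without ENRI 2. The FDR against WENRC was 0.000788 and 0.000636 without ENRI 1 and ENRI 2.

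Hbegf encodes the heparin-binding ligand HB-EGF, an early-response gene of many epithelia (NM_010415, chromosome 18, 36664581 to 36675459, minus strand). Its values were 8.77 and 8.86 in RANKL, 11.43 and 11.70 in ENRI, and 10.29 and 10.82 in WENRC. No groups overlapped, and the order was RANKL lowest, WENRC between, ENRI highest. Hbegf was lower in RANKL than in ENRI by a log2 difference of -2.75 (SE 0.21, FDR 0.00215) and than in WENRC by -1.74 (SE 0.21, FDR 0.00764). These were 9.09-fold and 4.19-fold lower in the authors' deposited table. It was lower in WENRC than in ENRI by -1.01 (SE 0.21, FDR 0.0311), a call lost after quantile normalization (-0.69, FDR 0.107) and upper quartile recentring (-0.90, FDR 0.0572). Without RANKL 1 or RANKL 2 the FDR against ENRI was 0.0506 or 0.0523. Against WENRC it was 0.111 and 0.117 without those libraries, 0.0292 without WENRC 1 and 0.0529 without WENRC 2.

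Tgfa and Egf, the remaining ligands, were called in no comparison of the 6 libraries. Tgfa, transforming growth factor alpha (NM_031199, chromosome 6, 86145221 to 86225737, plus strand), read 9.86 and 9.71 in RANKL, 10.01 and 9.17 in ENRI, and 9.57 and 9.57 in WENRC. RANKL exceeded both WENRC libraries by little and lay inside the ENRI range. Its differences were 0.20 for RANKL less ENRI (SE 0.27, FDR 0.646), 0.21 for RANKL less WENRC (FDR 0.657) and -0.02 for WENRC less ENRI (FDR 0.974). RANKL less ENRI was 0.61 without ENRI 1 and -0.22 without ENRI 2. Egf (NM_010113, chromosome 3, 129380495 to 129458240, minus strand) read 6.25 and 6.17 in RANKL, 6.12 and 5.75 in ENRI, and 6.27 and 6.50 in WENRC. Its differences were 0.28 (SE 0.21, FDR 0.389), -0.17 (FDR 0.646) and 0.45 (FDR 0.202) in the same order. Egf overlaps the gene 6330410L21Rik and strand handling is not given in the sources used here, so its reads are uncertain.

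Egfr, the receptor shared by all 6 ligands (NM_207655, chromosome 11, 16652206 to 16813910, plus strand), had nearly level means. They were 11.015 ± 0.061 in RANKL, 11.117 ± 1.496 in ENRI and 10.999 ± 0.121 in WENRC (SD, n = 2 each). The libraries were 10.97 and 11.06, 12.17 and 10.06, and 11.08 and 10.91 in that order. ENRI 1 was the highest of the 6 and ENRI 2 the lowest, so the ENRI level is not known from these data. A difference between ENRI replicates at least as large as that of Egfr, 2.12, was found for 313 of the 16563 tested genes. The difference was -0.10 for RANKL less ENRI (SE 0.62, FDR 0.923), which became 0.96 without ENRI 1 and -1.16 without ENRI 2. For WENRC less ENRI it was -0.12 (FDR 0.92), and 0.94 and -1.18 without those libraries.

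The co-receptors Erbb2 and Erbb3 were lowest in WENRC. Erbb2 (NM_001003817, chromosome 11, 98273798 to 98299030, plus strand) read 10.39 and 10.56 in RANKL, 10.41 and 10.51 in ENRI, and 9.855 and 9.503 in WENRC. The ENRI values lay within the RANKL range and both WENRC libraries lay under all others. Erbb2 was higher in RANKL than in WENRC by 0.79 (SE 0.17, FDR 0.0337) and lower in WENRC than in ENRI by -0.78 (SE 0.17, FDR 0.0331). The difference between RANKL and ENRI was 0.01 (SE 0.17, FDR 0.969). Erbb2 overlaps Mien1.

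Erbb3 (NM_010153, chromosome 10, 128006424 to 128026557, minus strand) read 10.893 and 11.002 in RANKL, 11.44 and 11.88 in ENRI, and 10.003 and 9.686 in WENRC. The groups did not overlap, with ENRI highest and WENRC lowest. Erbb3 was higher in RANKL than in WENRC by 1.10 (SE 0.20, FDR 0.0224) and lower in WENRC than in ENRI by -1.81 (SE 0.20, FDR 0.00961). Between RANKL and ENRI the difference was -0.71 (SE 0.20, FDR 0.0544). It was called with the mouse as a replicate block (FDR 0.0497) and after quantile normalization (FDR 0.0265) or upper quartile recentring (FDR 0.0467). The authors' deposited table also called it (adjusted p 0.0346). The difference was -0.93 without ENRI 1 and -0.49 without ENRI 2. The summed level of the 12 enterocyte markers was likewise lowest in WENRC and highest in ENRI (12.43 to 13.39 and 15.88 to 16.74). Goblet markers were also lowest in WENRC, at 10.94 to 11.87 against 13.53 to 13.56 in RANKL and 13.22 to 13.70 in ENRI, with 4 of 7 lower than in ENRI and 3 of 7 lower than in RANKL, against 1 higher than in RANKL. The part of either list in the 2 receptor differences was not tested. For RANKL against WENRC, the FDRs of Erbb2 and Erbb3 were 0.194 and 0.17 without RANKL 1, 0.288 and 0.219 without RANKL 2, 0.0765 and 0.0827 without WENRC 1, and 0.17 and 0.145 without WENRC 2.

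Errfi1 encodes MIG6, a protein that binds the EGFR kinase domain and shuts it down, and whose own transcription is raised by EGFR signalling in many cells (NM_133753, chromosome 4, 150229200 to 150242989, plus strand). Its values were 9.57 and 9.62 in RANKL, 12.05 and 12.58 in ENRI, and 10.86 and 11.03 in WENRC. The order was that of Hbegf, with RANKL lowest, ENRI highest and no overlap. Errfi1 was lower in RANKL than in ENRI by -2.72 (SE 0.20, FDR 0.00207) and than in WENRC by -1.35 (SE 0.20, FDR 0.0132). The authors' deposited table gave 8.78-fold and 2.97-fold lower. WENRC was lower than ENRI by -1.37 (SE 0.20, FDR 0.0148). Without RANKL 1 or RANKL 2, the FDR against ENRI was 0.0502 or 0.0529. Against WENRC it was 0.148 and 0.16 without those libraries, and 0.0789 and 0.104 without WENRC 1 and WENRC 2.

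Counted over the 9 members other than Ereg, RANKL was lower than ENRI for 2 (Hbegf and Errfi1) and higher for 0. That is 22.2% of them, close to the 20.9% of all tested genes called in that comparison (10.4% higher, 10.5% lower). By unadjusted limma p under 0.05, and by the authors' deposited table, the count was 3, with Erbb3 added as lower. Of all 16563 tested genes, 6061 and 3244 passed these 2 criteria. Against WENRC, RANKL was lower for the same 2 genes and higher for Erbb2 and Erbb3. Those 4 make 44.4% of the members, against 12.1% of all tested genes (8.53% higher, 3.62% lower). Unadjusted p and the authors' deposited table each gave 6, with Areg and Btc added as lower. Over all 16563 tested genes they gave 4858 and 4604. WENRC was lower than ENRI for 4 (Hbegf, Erbb2, Erbb3 and Errfi1) and higher for 0. That is 44.4%, against 14.6% of all tested genes (4.85% higher, 9.74% lower). Both other counts were 4, against 5385 and 2076 of all 16563 tested genes. Median differences over the 9 members were -0.53, -0.17 and -0.12, against 0.00, -0.01 and -0.01 over all tested genes.

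These counts rest on few libraries. The WENRC against ENRI calls lean on the spread of the RANKL libraries: with only the 4 WENRC and ENRI libraries, 0 of the 9 members and 0 of all tested genes were called by limma (4 and 4074 at an unadjusted p under 0.05). The FDR was then 0.0581 for Erbb3, 0.074 for Errfi1, and 0.111 for both Erbb2 and Hbegf. Leaving out any one RANKL or WENRC library from the fit of 6 gave these 4 genes FDRs from 0.0581 to 0.175. The comparisons share libraries, so they are not independent of each other.

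**Figure D2:**
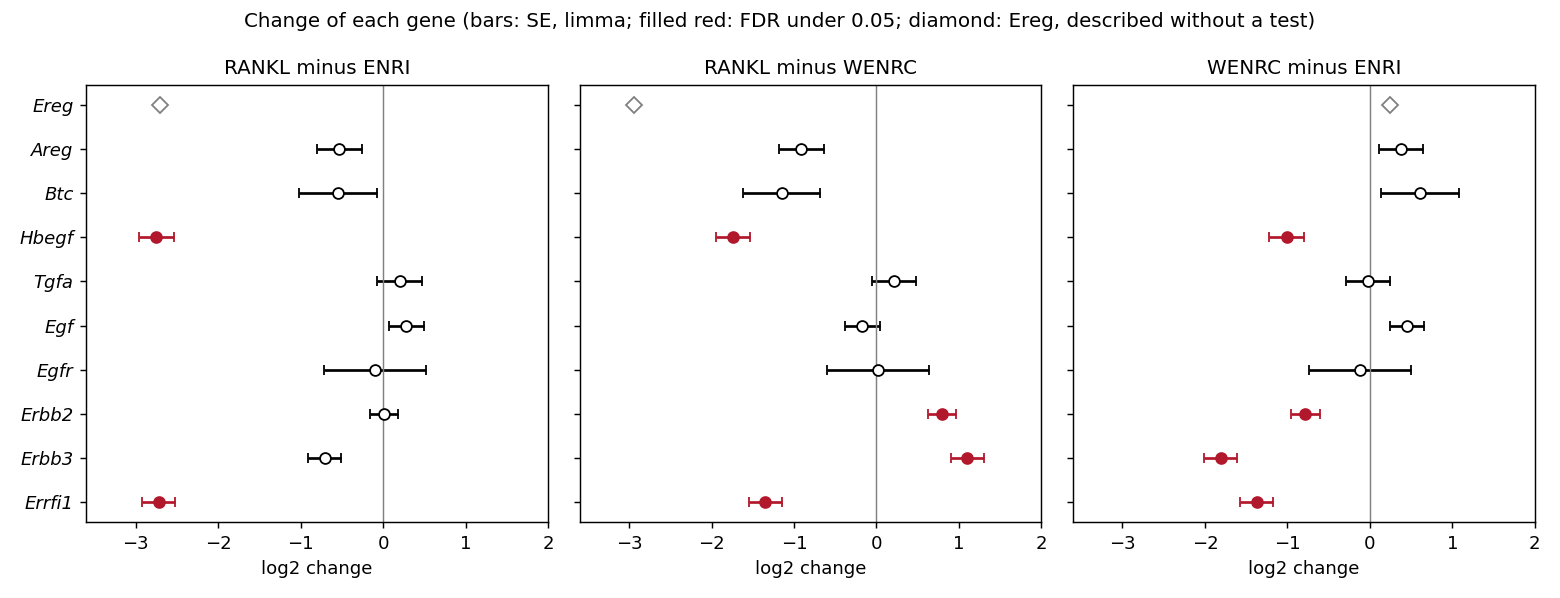
Log2 change of each gene (horizontal axis) in the 3 comparisons, with bars for the standard error from limma and filled red points for an FDR under 0.05. The diamond is Ereg, shown without a test. Hbegf and Errfi1 lie far to the left in both RANKL comparisons (-2.75 and -2.72 against ENRI), and Erbb2 and Erbb3 have filled points right of 0 for RANKL less WENRC (0.79 and 1.10).

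Within each mouse, WENRC less ENRI could be read in each animal. Erbb3 (-1.44 in mouse 1 and -2.19 in mouse 2), Errfi1 (-1.19 and -1.55), Hbegf (-1.15 and -0.88) and Erbb2 (-0.56 and -1.01) were lower in WENRC in both. Egf was higher in both, by 0.15 and 0.75. The other 5 members, Ereg among them, had opposite signs in the 2 mice, as had 25.5% of all tested genes. With 1 library per culture and mouse, neither animal has an error of its own, and animal and the 2 dates in the file header cannot be separated.

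**Figure D3:**
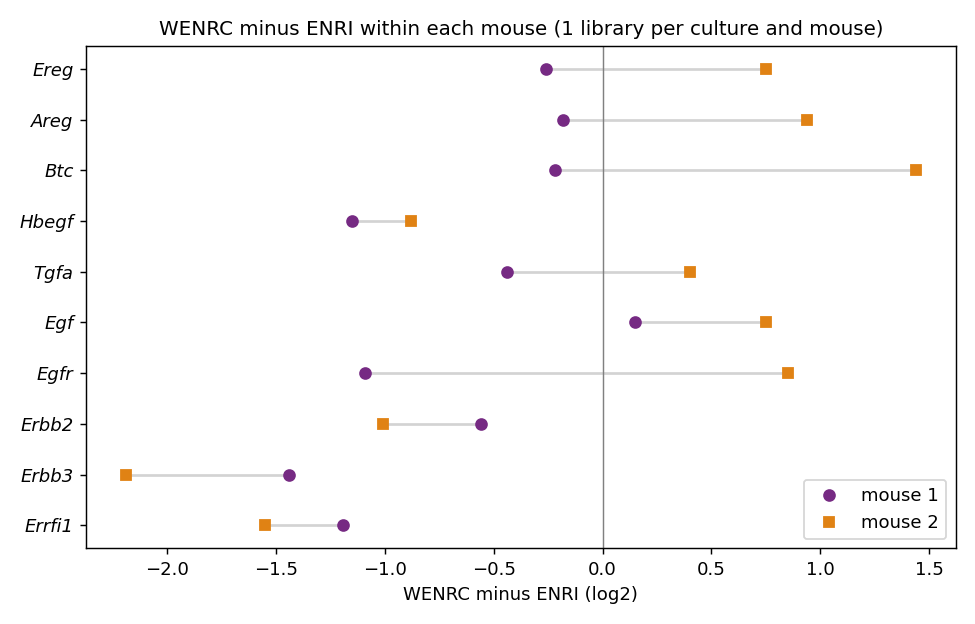
WENRC less ENRI on the log2 scale (horizontal axis) for each gene, from 1 library per culture in mouse 1 (circle) and mouse 2 (square). The pairs of Ereg, Areg, Btc, Tgfa and Egfr straddle 0, while Hbegf, Erbb2, Erbb3 and Errfi1 stay left of it.

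Over the 6 libraries, Hbegf (Pearson r = 0.90), Areg (0.838) and Errfi1 (0.805) followed Ereg most closely among the members. Btc was at 0.621, Egf and Egfr at 0.006 and 0.001, and Erbb3, Tgfa and Erbb2 at -0.211, -0.372 and -0.585. Outside the set, the 5 tested genes with the highest r were Enkur (0.996), St3gal2 (0.996), Dmrt2 (0.995), Hes1 (0.993) and Fbxl21 (0.992). Hes1, a repressor known as a target of Notch signalling, read 7.06 and 7.30 in RANKL, 8.46 and 8.32 in ENRI, and 8.31 and 8.65 in WENRC. These values describe 6 libraries that fall into 3 cultures, and the highest of 16563 coefficients is high by selection. Since Ereg was chosen for its low RANKL level, genes lower in RANKL tend to a high r. The share of all tested genes with an r as high as those of the members was not counted.

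Beyond the 10 members, 63 further genes of the pathway were listed by role. Their counts stand against 20.9% of all tested genes called for RANKL less ENRI, 12.1% for RANKL less WENRC and 14.6% for WENRC less ENRI. At an unadjusted limma p under 0.05 the numbers over all 16563 tested genes were 6061, 4858 and 5385. In the authors' deposited table they were 3244, 4604 and 2076. Of 6 other ligands and receptors, 5 were tested. Nrg4, a neuregulin that binds ERBB4, was lower in RANKL than in ENRI (-1.07, SE 0.24, FDR 0.031) and lower in WENRC than in ENRI (-1.38, SE 0.24, FDR 0.0216), with 0 called between RANKL and WENRC (1 at an unadjusted p under 0.05, 0 in the authors' deposited table). Nrg4 overlaps Fbxo22. The receptor Erbb4 read 6.20 and 5.49 in RANKL, 4.97 and 7.78 in ENRI, and 5.10 and 7.32 in WENRC, and was not called. In both ENRI and WENRC the Erbb4 level was higher in mouse 2 than in mouse 1. Nrg3 did likewise, at 6.16 and 8.20 in ENRI, and 5.90 and 7.73 in WENRC, for mouse 1 and mouse 2. Both genes were very weakly transcribed for their length, at percentiles 0.0181 (Erbb4) and 1.28 (Nrg3) of tested genes. The difference between the mice was not tested.

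Of 7 genes that shed the ligands or control shedding, Rhbdl2, a rhomboid protease that can cut EGF precursors, was higher in RANKL than in ENRI (1.26, SE 0.26, FDR 0.0234) and than in WENRC (1.65, SE 0.26, FDR 0.0153). Adam10, a metalloprotease that sheds EGF and betacellulin, was higher in RANKL than in ENRI (0.70, SE 0.18, FDR 0.0413), a call lost in the authors' deposited table (adjusted p 0.0539) and in the fit of the 4 libraries (FDR 0.0803). WENRC and ENRI differed for 0 of 7 (1 at an unadjusted p under 0.05, 0 in the authors' deposited table). The called shares were 28.6% for RANKL less ENRI and 14.3% for RANKL less WENRC, and the list's median differences were 0.26, 0.22 and 0.05.

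Of 10 genes that restrain the receptors, Cbl, the ubiquitin ligase that sends active EGFR to the lysosome, was higher in RANKL than in ENRI (0.75, FDR 0.0282) and than in WENRC (0.82, FDR 0.0307). Lrig1, a receptor inhibitor and stem cell marker of the crypt, was lower in RANKL than in WENRC (-0.69, FDR 0.0388) and higher in WENRC than in ENRI (1.05, FDR 0.0144). Lrig1 overlaps Slc25a26, and the summed stem cell markers lay in the same order. Socs4 was lower in RANKL than in ENRI (-0.69, FDR 0.0467), a call lost in most alternatives, among them the authors' deposited table (adjusted p 0.0742). In all, 2, 2 and 1 of the 10 were called in the 3 comparisons. With the mouse as a replicate block, 4 of the 10 were called for RANKL less WENRC in place of 2, and 3 for WENRC less ENRI in place of 1. Calls over all 16563 tested genes also rose under the block, from 2012 to 2945 and from 2416 to 3545.

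Of 21 adaptors and kinases of the Ras, MAPK and PI3K routes, 14.3%, 14.3% and 4.76% were called in the 3 comparisons, and the median differences were 0.01, 0.22 and -0.19. Pik3ca, the catalytic PI3K subunit, was higher in RANKL than in ENRI (1.40, SE 0.13, FDR 0.00341) and than in WENRC (1.54, SE 0.13, FDR 0.00316). Braf, a kinase that activates MEK, was higher in RANKL than in ENRI (0.66, FDR 0.0483), a call lost in the authors' deposited table (adjusted p 0.0976). Grb2, an adaptor that links receptors to Ras, was higher in RANKL than in WENRC (0.54, FDR 0.0494), a call lost after quantile normalization (0.30, FDR 0.11). Map2k2, the kinase MEK2, was lower in WENRC than in ENRI (-1.32, FDR 0.0198), the 1 call of that comparison (2 with the replicate block). Over all tested genes the block raised the calls of that comparison from 2416 to 3545.

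Of 9 feedback inhibitors of ERK signalling, 3 (33.3%, against 10.5% of all tested genes) were lower in RANKL than in ENRI: Dusp5 and Dusp6, phosphatases that switch ERK off, and Spry2, a Sprouty inhibitor. Dusp6 read 6.96 and 7.25 in RANKL, 9.56 and 9.65 in ENRI, and 8.32 and 8.34 in WENRC. As with Hbegf and Errfi1, RANKL was lowest, ENRI highest and no groups overlapped. Its differences were -2.50 for RANKL less ENRI (SE 0.16, FDR 0.00153), -1.23 for RANKL less WENRC (SE 0.16, FDR 0.00861) and -1.27 for WENRC less ENRI (SE 0.16, FDR 0.0111).

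Dusp5 read 8.47 and 8.54 in RANKL, 10.91 and 12.39 in ENRI, and 8.94 and 9.08 in WENRC. Only ENRI stood well apart: the difference was -3.14 for RANKL less ENRI (SE 0.44, FDR 0.00851) and -2.64 for WENRC less ENRI (SE 0.44, FDR 0.0195). Spry2 was lower by -1.36 for RANKL less ENRI (SE 0.24, FDR 0.0149). Spry1 went the other way between WENRC and ENRI (0.90, FDR 0.0463), a call lost in the authors' deposited table (adjusted p 0.0746). For RANKL less WENRC, Dusp6 was the 1 gene of 9 called (11.1%, against 12.1% of all tested genes), with 5 at an unadjusted limma p under 0.05 and 4 called in the authors' deposited table. The 9 genes had median differences of -0.02, -0.51 and 0.00, and Spry4, Spred1, Spred2, Spred3 and Dusp4 were called in none of the 3 comparisons.

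Of 10 genes known to respond to ERK, 2 (20%) were lower in RANKL than in ENRI and 3 (30%) lower than in WENRC, against 10.5% and 3.62% of all tested genes. At an unadjusted limma p under 0.05, in either direction, the numbers were 3 and 5, against 6061 and 4858 of all 16563 tested genes. In the authors' deposited table they were 3 and 6, against 3244 and 4604. Emp1, a membrane protein gene raised by EGF in several cell types, read 8.75 and 8.47 in RANKL, 11.94 and 11.61 in ENRI, and 10.04 and 10.17 in WENRC. It was lower by -3.17 for RANKL less ENRI (SE 0.18, FDR 0.00104), -1.50 for RANKL less WENRC (SE 0.18, FDR 0.00727) and -1.67 for WENRC less ENRI (SE 0.18, FDR 0.00912). Egr1, an immediate early transcription factor, read 8.89 and 9.12 in RANKL, 10.50 and 11.22 in ENRI, and 10.31 and 10.64 in WENRC. It was lower in RANKL than in ENRI by -1.85 (SE 0.27, FDR 0.0089) and than in WENRC by -1.47 (SE 0.27, FDR 0.0222), and ENRI and WENRC overlapped. Etv5, an Ets factor, had another order, with 7.55 and 7.31 in RANKL, 7.88 and 7.75 in ENRI, and 8.86 and 8.91 in WENRC. It was lower in RANKL than in WENRC (-1.46, SE 0.16, FDR 0.00606) and higher in WENRC than in ENRI (1.07, SE 0.16, FDR 0.0148). The list's medians were -0.42, -1.11 and 0.43.

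The calls on pathway genes had the same dependence on libraries as those on the members. Without RANKL 1 or RANKL 2, no tested gene was called for RANKL less WENRC (2702 and 2486 at an unadjusted p under 0.05) or for WENRC less ENRI (4078 and 4075), and of the pathway genes named for RANKL less ENRI only Dusp6 (FDR 0.0409 and 0.0431) and Emp1 (FDR 0.0406 and 0.0431) kept their calls. Without WENRC 1 or WENRC 2, Pik3ca (FDR 0.035 and 0.0429) was the only one named for RANKL less WENRC that kept its call, and none named for WENRC less ENRI did. Nrg4, Adam10, Braf and Socs4 also lost theirs for RANKL less ENRI without either WENRC library (FDR 0.0736 to 0.0974), and Socs4 without ENRI 2 (FDR 0.054).

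**Figure D4:**
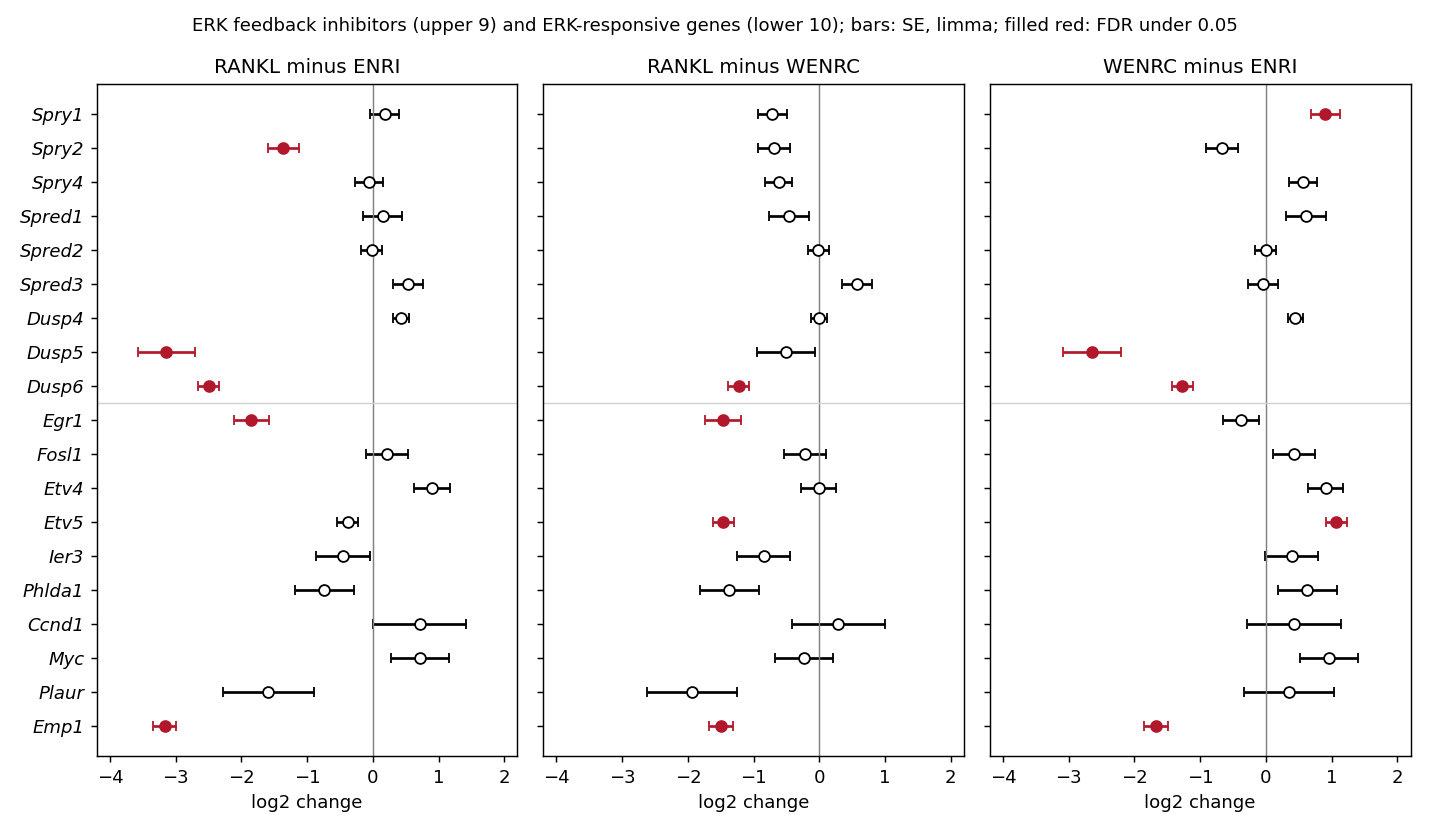
Log2 change (horizontal axis) of 9 ERK feedback inhibitors (upper rows) and 10 ERK-responsive genes (lower rows) in the 3 comparisons, with bars for the standard error from limma and filled red points for an FDR under 0.05. Dusp5, Dusp6 and Emp1 lie farthest left for RANKL less ENRI (-3.14, -2.50 and -3.17).

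Promoters of Dusp5 and Emp1 are shown because these 2 genes had the largest differences of the pathway lists and their promoters held motifs of ERK-responsive factors. Dusp5 (chr19:53528895-53529144 in GRCm38.p6, plus strand) had a pair of adjoining CArG boxes, the motif of serum response factor, beginning 82 and 72 bases before the start (1.47% of promoters hold one). Emp1 (chr6:135362681-135362930, plus strand) had a pair of matches to the AP-1 motif of Fos and Jun proteins, searched with any middle base (TGANTCA). They were TGAGTCA, beginning 145 bases before the start, and TGATTCA, beginning 25 bases before it (6.75% of promoters hold at least 1 such match). The motifs are in capitals. No motif searched was found for Dusp6. The part of these motifs in the differences was not tested. RefSeq's gene differs in length from the mm9 gene by 660 bases for Dusp5, so its start may not be the one counted by the authors.
Dusp5: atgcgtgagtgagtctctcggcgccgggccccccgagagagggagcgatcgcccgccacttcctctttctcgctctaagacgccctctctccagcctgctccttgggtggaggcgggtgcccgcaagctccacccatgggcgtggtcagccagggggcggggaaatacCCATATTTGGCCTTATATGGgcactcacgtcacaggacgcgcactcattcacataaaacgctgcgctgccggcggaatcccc
Emp1: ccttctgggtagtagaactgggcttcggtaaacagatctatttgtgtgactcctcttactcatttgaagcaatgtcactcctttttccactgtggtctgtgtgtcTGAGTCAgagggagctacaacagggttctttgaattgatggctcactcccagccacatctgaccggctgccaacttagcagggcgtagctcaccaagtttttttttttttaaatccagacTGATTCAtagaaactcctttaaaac

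H3K27me3, the mark laid down by the Polycomb complex PRC2 at silent genes, was compared by the authors between RANKL and WENRC. Their tables list regions with at least 2-fold more tags in one culture than in the other, 35798 with more in RANKL and 13607 with more in WENRC, from 32.7 M and 36.3 M tags. WENRC tags are scaled by 0.9 to the RANKL depth. There is no replicate check, and since only differing regions are listed, a gene without one may carry the mark at similar levels, or not at all, in both cultures.

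No region was named for Ereg. The nearest region higher in RANKL lay 314.8 kb from the Ereg start and the nearest higher in WENRC 177.8 kb from it. The whole 385.5 kb from 5 kb before Epgn to 5 kb past Btc (chr5:91451543-91837020 in mm9) held 1 region, higher in WENRC. Areg, Hbegf, Erbb2 and Erbb3 had no region named for them either.

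The authors named RANKL-higher regions for 3 of the 10 members and WENRC-higher regions for 2, or 30% and 20%, against 32.3% and 23.3% of all tested genes. Within 5 kb of a start the counts were 1 and 0 of 10, against 18.0% and 5.01%. Shares near the background say nothing particular about the members.

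Egf was the only member with such regions at the gene itself. A region just before its start (chr3:129459015-129459640, 1.1 kb before) had 32 RANKL tags against 10.8 scaled WENRC tags, an authors' fold of 2.96, and one in its intron 5 (chr3:129437521-129438021) had 18 against 3.6, a fold of 5. A further region inside Egf that the authors named for 6330410L21Rik (chr3:129456091-129456814) had 35 against 10.8. Intron 1 held 2 regions in the other direction, with 6 RANKL against 18.0 WENRC tags at chr3:129444075-129444575 and 3 against 17.1 at chr3:129452366-129452866. The gene thus carried 3 RANKL-higher and 2 WENRC-higher regions, while its GRO-seq value differed by -0.17 between these cultures (FDR 0.646).

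The other named regions lay between genes. Tgfa had a pair higher in RANKL, 39.4 kb (chr6:86105353-86106259, 54 tags against 22.5) and 38.0 kb (chr6:86106813-86107630, 42 against 17.1) before its start. Errfi1 had 1 higher in RANKL, 72.8 kb before its start (chr4:150154819-150155319, 21 against 5.4, authors' fold 3.89). Those of Btc (chr5:91885567-91886067, 53.8 kb before the start, 7 RANKL tags against 20.7) and Egfr (chr11:16554550-16555050, 97.4 kb before the start, 5 against 19.8) were higher in WENRC. At a fold of at least 4, only the region in intron 5 of Egf was left.

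Among the 63 pathway genes, 10 (15.9%) had a region higher in RANKL within 5 kb of their start, and 2 (3.17%), Erbb4 and Nrg1, one higher in WENRC, near or below the 18.0% and 5.01% of all tested genes. At any distance the shares were 34.9% and 30.2%, against 32.3% and 23.3%. The 10 were Araf, Dusp6, Fosl1, Mvb12b, Nrg2, Nrg3, Pik3cb, Socs5, Spred3 and Spry4. That of Dusp6 overlapped its exon 2 (chr10:98727226-98727726, 18 RANKL tags against 3.6, fold 5). Erbb4 had a pair before its start, with 9 RANKL tags against 23.4 (chr1:69155288-69155788) and 5 against 20.7 (chr1:69157271-69157771). By GRO-seq, 1 of those 10 genes (Dusp6) was called between RANKL and WENRC, a share near the 12.1% of all tested genes.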

How the data were processed

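GRO-seq covered 6 libraries (2 each of RANKL, ENRI and WENRC) and H3K27me3 ChIP-seq 3. Reads were aligned to mm9, and the submitters' processing notes name Bowtie2 2.3.4.1, HOMER and DESeq2. Per the file headers, the authors counted reads over whole RefSeq genes with HOMER, and deposited log2 values made comparable across libraries; the transform is not named and was read from the shape of the values. The authors' log2 fold changes and adjusted p-values were copied from the deposited table with the sign turned to first-named less second-named. H3K27me3 tags of RANKL are counts as deposited, WENRC tags are a signal scaled by 0.9 by the authors with a floor of 0.5, and each region carries the authors' fold (a ratio of tags).

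The design allowed for counts; since the values are log2, limma 3.58.1 (R 4.3.3) was run on them with no pseudocount, in 1 fit of 3 group means with a variance trend, on 16563 genes at or above log2 of 10 in at least 2 libraries. The 2131 genes listed at 0 in every library were left out. P-values are two-sided, adjusted by the Benjamini-Hochberg method over all tested genes, and describe the spread between these libraries; whether the RANKL libraries come from separate animals is not given in the sources used here. The fit was also run on simulated data, drawn with 1 SD per gene shared by all 6 libraries. In the data the spread between replicates differed by culture, so that run cannot check the fit under unequal spread.

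ENRI and WENRC libraries of one mouse are paired by the labels. The mouse 1 less mouse 2 difference correlated across genes between the 2 cultures at 0.414. Errors are SDs of 2 libraries, or limma's SE. No GRO-seq depth could be had, so no interval that needs it is given.

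Members, pathway lists and markers were chosen with earlier results of these data known. Named were all members, up to 3 called genes with the largest change per pathway list and comparison, the 5 genes most correlated with Ereg, and the neighbours of the Ereg locus; 1 gene this rule names is not reported here. The levels of Erbb4, Nrg3 and Gm19619, those of single stem cell and enteroendocrine markers, and the regions of Dusp6 and Erbb4 were picked out after their values were seen. Symbols were checked through RefSeq identifiers, of which 24292 of 24505 matched. Alternatives were the mouse as a block, only the libraries compared, 2 other scalings, no filter, no trend, each library left out, the authors' deposited test, and for regions a fold of 4, a distance of 5 kb and overlap with the gene.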

Additional observations from a re-analysis of the deposited data

Results flagged for a closer look

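For 5 of the 10 genes, WENRC less ENRI had opposite signs in the 2 mice, which singled them out; the difference between the animals was not tested, since each culture has 1 library per mouse. Ereg differed by -0.26 in mouse 1 and 0.75 in mouse 2, a gap of -1.01 on the log2 scale. Areg gave -0.18 and 0.94, a gap of -1.12. Btc gave -0.22 and 1.44, a gap of -1.66. Tgfa gave -0.44 and 0.40, a gap of -0.84. Egfr gave -1.09 and 0.85, a gap of -1.94, the widest of the 10. All 5 gaps run the same way, with the lower value in mouse 1, as do those of Hbegf (-0.27) and Egf (-0.60). Those of Erbb2 (0.45), Erbb3 (0.76) and Errfi1 (0.37) run the other way. The share of all tested genes with a gap in either direction was not counted. Of all 16563 tested genes, 4217 (25.5%) had opposite signs. For Egfr, Btc, Tgfa and Areg, ENRI 1 exceeded ENRI 2 (by 2.12, 1.56, 0.84 and 0.66), while for Ereg the ENRI libraries differed by -0.05 and the WENRC libraries by -1.06.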

How the results depend on the processing

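The count of called members kept within 1.5 times its value under most settings and moved most when a library was left out. A group with 1 library left adds no spread to the fit, so FDRs and counts of such fits are uncertain, here and below. Leaving out each library in turn gave 0 to 5 called for RANKL less ENRI (2 with all libraries), 0 to 6 for RANKL less WENRC (4) and 0 to 7 for WENRC less ENRI (4). With the mouse as a replicate block, the counts were 3, 4 and 4. Over all tested genes the block gave 4749, 2945 and 3545 calls, against 3464, 2012 and 2416 without it. For WENRC less ENRI, only the 4 libraries compared gave 0 members, and those libraries with the replicate block gave 0 as well, with 4 at an unadjusted p under 0.05 in each and FDRs of 0.0613 (Erbb3) to 0.129 (Erbb2) under the block. In the fit of all 6 libraries, the block changed 1 member's call, that on Erbb3 for RANKL less ENRI, and no call on a named pathway gene. Egfr turned from -0.10 to 0.96 for RANKL less ENRI and from -0.12 to 0.94 for WENRC less ENRI without ENRI 1, and reached -1.16 and -1.18 without ENRI 2. Of single member values, 179 stayed on their side of the threshold, 9 gained a call and 10 lost one over settings other than leaving out a library, and none changed direction past the threshold. For named pathway genes, 187 of these values kept the call and 38 lost it. Of pathway list counts, 95 stayed within 1.5 times, 15 rose past that and 22 fell below it. The 7 regions named for members became 1 at a fold of at least 4 and 1 within 5 kb of a start, while counting every listed region that overlaps a member or the 5 kb before it, whatever gene it is named for, gave 5, all at Egf.

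Over all genes, 3464 were called for RANKL less ENRI, against 1925 with the 4 libraries compared, 111 and 64 without RANKL 1 and RANKL 2, 6966 without ENRI 1, and 1915 and 1929 without WENRC 1 and WENRC 2. For RANKL less WENRC the count was 2012, against 5194 with the 4 libraries, 5152 and 5176 without ENRI 1 and ENRI 2, 262 and 216 without WENRC 1 and WENRC 2, and 4604 in the authors' deposited table. For WENRC less ENRI it was 2416, against 0 with the 4 libraries (4074 at an unadjusted p under 0.05), 124 with the block in those, 6650 without ENRI 1, and 39 and 0 without WENRC 1 and WENRC 2. The share of calls that were higher was 70.2% for RANKL less WENRC and 53.3% after upper quartile recentring, and 33.2% and 54.1% for WENRC less ENRI. That recentring moved the median of all genes to -0.12 and 0.10 in these 2 comparisons.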
